A study of Mus musculus with 6 samples.

Results

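RNA levels were compared for 10 endocytic genes, chosen by name: the receptor genes Lrp2 and Cubn, the adaptor gene Dab2, the clathrin light chain gene Clta, the caveolin genes Cav1 and Cav2, and the early endosome genes Eea1, Rab5a, Rab5b and Rab5c. The proximal tubule takes up albumin and other filtered proteins by endocytosis, but uptake itself was not measured in these data. All 10 were in the deposited table of 24421 genes, and all 10 were among the 11671 genes with a mean of at least 0.5 RPKM, reads normalized to gene length and to the size of the library, which were tested. RNA came from immortalized wild-type mouse proximal tubular epithelial cells (PTECs) in culture, with 3 libraries after 6 hours of bovine serum albumin (BSA) and 3 after 6 hours of palmitic acid bound to BSA (PA). Both groups therefore received albumin, and the comparison is between albumin without and with a load of saturated fatty acid. Whether the 3 libraries of a treatment are separate cultures is stated by neither labels nor methods, and p-values here reflect only the variation among these libraries, possibly technical.

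In the kidney, megalin and cubilin on the apical membrane of proximal tubular cells bind filtered albumin, vitamin carriers and hormones. Megalin is drawn into clathrin-coated pits by adaptors such as DAB2 that recognize its cytoplasmic tail, and the vesicles that pinch off fuse with early endosomes. There the GTPase RAB5 recruits the tether EEA1, the cargo is passed toward lysosomes and the receptors return to the surface. Caveolins coat another kind of plasma membrane pit and are not needed for the clathrin route. TFEB is the lysosomal transcription factor that the study follows. Citing earlier work, the study describes it as an inducer of endocytic genes that include Cav2, Clta, Eea1 and Rab5, which is why these transcripts were compared. Because Tfeb deletion worsened phospholipid accumulation, the study itself infers that TFEB hardly affects endocytosis while phospholipid-filled lysosomes form.

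The cultured cells kept some features of the proximal tubule. Of 27 proximal tubule markers, 5 had a mean over 1 RPKM, which were Lrp2, Slc6a19, Aqp1, Mme and Gatm, and Slc13a1 and Miox were listed at 0 in all libraries. In such bulk RNA, fewer cells of a kind and less RNA per cell cannot be told apart. The summed level of the list was 47.5 to 53.5 RPKM with BSA and 48.4 to 50.1 with PA, most of it from Gatm, whose mean was 27.5 RPKM with BSA and 29.0 with PA. The other 4 had lower means with PA, and of them Slc6a19, a neutral amino acid transporter gene, fell from 2.36 to 1.46 RPKM (adjusted p = 0.0260 from limma), while Mme went from 3.58 to 2.66 and Aqp1 from 7.75 to 6.73 with overlapping groups. Of 8 endothelial markers, which matter here because endothelium is rich in caveolae, 1 had a mean over 1 RPKM across all libraries. This was Flt1, with means of 4.34 RPKM with BSA and 4.83 with PA. Plvap had means of 1.03 RPKM with BSA and 0.932 with PA. Pecam1 had a mean of 0.0356 RPKM with BSA and 0.0364 with PA, and Emcn was listed at 0. The summed level of these markers was 5.22 to 5.80 RPKM with BSA and 5.62 to 6.22 with PA. The sums of 8 renal epithelial markers, 6 of them over 1 RPKM and mainly Krt8 and Krt18, were 908.7 to 928.3 RPKM with BSA and 759.5 to 777.4 with PA, those of 12 markers of other nephron segments, mainly Podxl, were 18.5 to 19.2 and 21.0 to 22.5, and those of 9 fibroblast and smooth muscle markers were 2.52 to 2.69 and 1.501 to 2.17. The sums of 8 immune markers overlapped, at 11.3 to 14.9 and 12.2 to 15.1 RPKM. The part of these shifts in the changes below was not tested. Library sizes, read from the steps between RPKM values, were 17679817 to 21568228 reads. The members were covered by 185 (Cubn) to 4203 (Rab5c) reads per library, so counting error alone gave a relative SD of 7.35% at the lowest and 1.54% at the highest.

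Of the 10 endocytic genes, 1 rose with PA, 2 fell and 7 did not pass the test. Eea1 was 1.65-fold higher, Cav1 was 1.21-fold lower and Dab2 was 1.18-fold lower. The test was that of limma, run on log2(RPKM + 0.1), where fold changes of low genes come out slightly too small. A gene was called when its p, adjusted over all genes tested by the Benjamini-Hochberg method, was under 0.05. By that rule 20.7% of all genes tested were called, 11.2% higher and 9.52% lower, and against that share 3 of 10 genes does not set the members apart. The study's rule for differentially expressed genes also asks for an absolute log2 fold change over 0.4. It took 6.29% of the genes tested, 4.22% higher and 2.06% lower, and among the members Eea1. The median log2 fold change of the 10 members was −0.04, the same as that of all genes tested (−0.04). In 4 members each PA value exceeded each BSA value (18.2% of all genes tested) and in 3 it was lower (22.3%), together 7 of 10 members beside 40.5% of all genes tested.

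**Figure D1:**
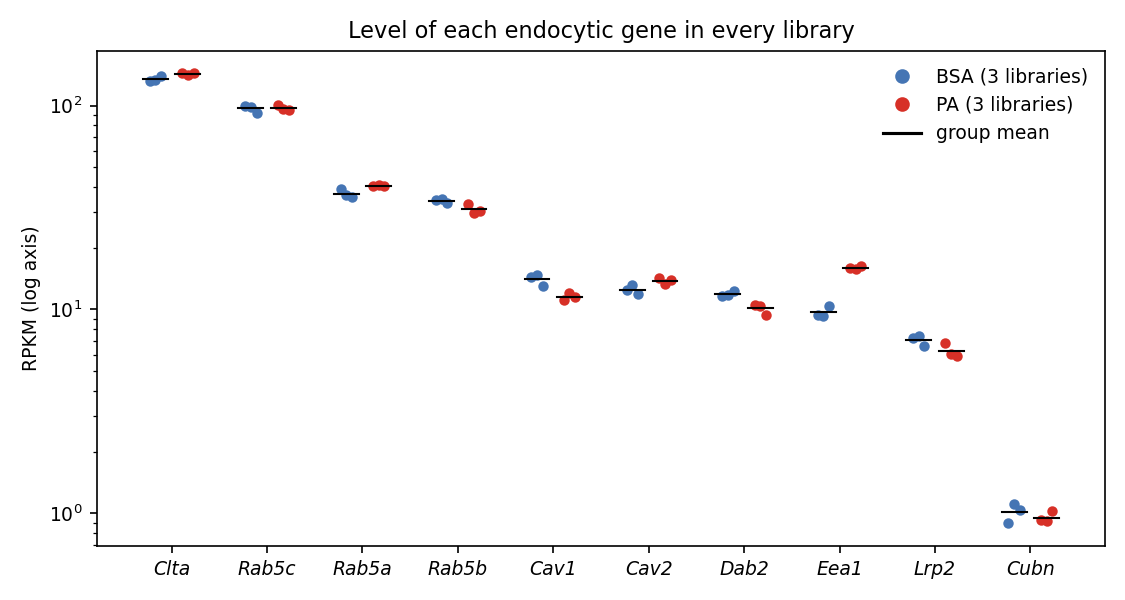
RPKM of the 10 endocytic genes (log axis) in each of the 3 BSA and 3 PA libraries, with a line at each group mean. Levels run from about 1 RPKM for Cubn to 144.0 for Clta, and the groups are far apart in Eea1, at 9.28 to 10.4 RPKM with BSA and 15.7 to 16.4 with PA.

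Levels can be set side by side on the RPKM scale, which is per length of gene, and the receptor genes stood lowest. With BSA the order ran Clta, Rab5c, Rab5a, Rab5b, Cav1, Cav2, Dab2, Eea1, Lrp2 and Cubn. In that order Cav1 overlapped Cav2, and Cav2 overlapped Dab2, while the other neighbours did not overlap. Clta lay above 95.8% of the genes tested by its mean level and Rab5c above 93.5%, but Lrp2 only above 35.4% and Cubn above 6.8%. With PA, Eea1 moved from position 8 to position 5, ahead of Cav2, Cav1 and Dab2, and Cav2 moved ahead of Cav1.

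Megalin and cubilin transcripts were low, and neither passed the test. Lrp2, which encodes megalin, spans bases 69424340 to 69586065 of chromosome 2 (GRCm38, minus strand). Its levels were 7.28, 7.42 and 6.65 RPKM in BSA replicates 1, 2 and 3 and 6.82, 6.04 and 5.89 RPKM in PA replicates 1, 2 and 3. PA replicates 2 and 3 lay below every BSA library, and PA replicate 1 lay above BSA replicate 3, so the groups overlapped. The means were 7.11 ± 0.409 and 6.25 ± 0.497 RPKM (SD, n = 3 libraries each), a log2 fold change of −0.19 (standard error 0.07, 95% interval −0.36 to −0.01). The adjusted p from limma was 0.118, and limma voom on the recovered reads, in which the log2 fold change was also −0.19, gave an adjusted p of 0.0300. The interval reached from almost no change to a loss of 0.36 on the log2 scale, so these libraries leave the size of any fall poorly determined.

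Cubn encodes cubilin, which has no membrane-spanning part and depends on amnionless and megalin for its uptake. It lies on the same chromosome as Lrp2, from 13276338 to 13491813. It was at 0.895, 1.11 and 1.03 RPKM with BSA and 0.923, 0.915 and 1.02 RPKM with PA, and the groups overlapped. The log2 fold change was −0.08 with a 95% interval of −0.43 to 0.28 (adjusted p = 0.749 from limma), the widest interval of the 10 genes, at 185 to 272 reads per library. Cubn stood at 14.3% ± 1.74 of the Lrp2 level with BSA and 15.3% ± 1.91 with PA (SD, n = 3 libraries each), so the proportion of the receptor transcripts differed by less than the spread between libraries. The transcript of its partner, Amn, was below the expression minimum, with 6 to 17 reads per library.

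Dab2, the adaptor that links megalin to clathrin, fell. The gene spans 6299788 to 6440712 on chromosome 15. It was at 11.7, 11.8 and 12.3 RPKM with BSA and 10.6, 10.4 and 9.43 RPKM with PA. All PA libraries were below all BSA libraries, with PA replicate 3 the lowest. The log2 fold change was −0.24 (standard error 0.06, 95% interval −0.36 to −0.11, adjusted p = 0.0231 from limma). Without BSA replicate 2, PA replicate 2 or PA replicate 3 it no longer passed, with log2 fold changes of −0.24, −0.25 and −0.19 and adjusted p-values of 0.0671, 0.0616 and 0.0694. The ratio of Dab2 to Lrp2 was 1.68 ± 0.146 with BSA and 1.62 ± 0.0855 with PA, and its groups overlapped.

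Clta encodes clathrin light chain A, which binds the heavy chain of the clathrin lattice. It lies on chromosome 4 from 44004452 to 44032846. Its levels were 131.6, 133.1 and 140.3 RPKM with BSA and 143.7, 140.5 and 144.0 RPKM with PA. BSA replicate 3 came within a fraction of an RPKM of PA replicate 2, and the groups did not overlap. The log2 fold change was 0.08 (standard error 0.03, 95% interval 0.00 to 0.16) and did not pass (adjusted p = 0.127 from limma). Without BSA replicate 3, the highest library of its group, it was 0.11 with an adjusted p of 0.0190.

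Of the caveolin genes, neighbours on chromosome 6 in the same orientation, Cav1 fell and Cav2 did not pass. Cav2 spans 17281185 to 17289115 and Cav1 17306335 to 17341452, with 17219 bases between them. Cav1, which encodes the main structural protein of caveolae, was at 14.4, 14.7 and 13.0 RPKM with BSA and 11.2, 12.0 and 11.5 RPKM with PA. All PA libraries were below all BSA libraries, and Cav1 fell, its log2 fold change being −0.28 (standard error 0.06, 95% interval −0.41 to −0.14, adjusted p = 0.0147 from limma). It no longer passed without BSA replicate 2 (log2 fold change −0.24, adjusted p = 0.0584) or without PA replicate 3 (−0.27, adjusted p = 0.0557).

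Cav2, which encodes a caveolin that assembles together with caveolin-1, was at 12.5, 13.1 and 11.9 RPKM with BSA and 14.2, 13.4 and 14.0 RPKM with PA. All PA libraries were above all BSA libraries. Its log2 fold change of 0.15 (standard error 0.05, 95% interval 0.03 to 0.27) did not pass (adjusted p = 0.0765 from limma), and after median-of-ratios scaling it did, at 0.17 and an adjusted p of 0.0366. The ratio of Cav2 to Cav1 was 0.868, 0.893 and 0.912 with BSA and 1.27, 1.12 and 1.22 with PA. The more abundant caveolin transcript per length was thus Cav1 in each BSA library and Cav2 in each PA library. This ratio was described after the levels were known and was not tested.

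Eea1 had the largest change and the smallest adjusted p of the 10. EEA1 tethers incoming vesicles to early endosomes by binding RAB5 and the lipid phosphatidylinositol 3-phosphate. The gene spans 95940650 to 96045518 on chromosome 10, plus strand. Its levels were 9.37, 9.28 and 10.4 RPKM with BSA and 16.0, 15.7 and 16.4 RPKM with PA, from 1443 to 1568 reads with BSA and 2201 to 2536 with PA. The PA libraries were close together, with an SD of 0.314 RPKM around 16.0, and each stood well above the highest BSA library. The log2 fold change was 0.72 (standard error 0.06, 95% interval 0.60 to 0.85, adjusted p = 1.2e-04 from limma). It was number 194 from the top among the log2 fold changes of all 11671 genes tested, above 98.3% of them. Eea1 passed in all 17 fits, which are the one reported here and 16 alternatives, with log2 fold changes from 0.67 to 0.78.

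**Figure D2:**
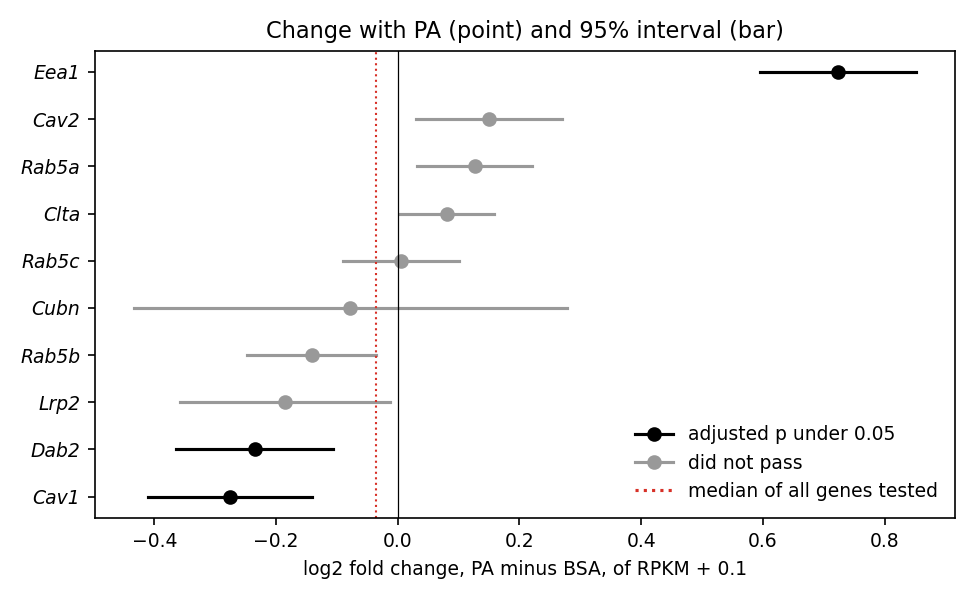
Log2 fold change of each endocytic gene, PA minus BSA, on the log2(RPKM + 0.1) scale, with the 95% interval from limma as a bar. Black marks an adjusted p under 0.05 over all genes tested and grey the rest, and the dotted line is the median of all genes tested (−0.04). Eea1 stands alone at 0.72, and Cav1 and Dab2 lie lowest at −0.28 and −0.24.

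The 3 RAB5 genes encode closely related GTPases of the early endosome, and none of them passed. Rab5a was at 39.1, 36.4 and 35.7 RPKM with BSA and 40.2, 40.6 and 40.4 RPKM with PA. All PA libraries were above all BSA libraries, with BSA replicate 1 closest. Its log2 fold change was 0.13 (standard error 0.04, 95% interval 0.03 to 0.22, adjusted p = 0.0655 from limma), and without BSA replicate 1 it was 0.17 with an adjusted p of 0.0248.

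Rab5b was at 34.3, 34.8 and 33.2 RPKM with BSA and 32.8, 29.6 and 30.4 RPKM with PA, with all PA libraries below all BSA libraries. The log2 fold change was −0.14 (standard error 0.05, 95% interval −0.25 to −0.04, adjusted p = 0.0652 from limma). It passed without BSA replicate 3 (−0.16, adjusted p = 0.0469) and without PA replicate 1 (−0.18, adjusted p = 0.0319). Rab5b lies on chromosome 10 from 128677175 to 128696264, and Rab5a on chromosome 17 from 53479234 to 53507680.

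Rab5c, the most abundant of the 3, was at 99.8, 98.7 and 91.9 RPKM with BSA and 100.4, 96.0 and 95.1 RPKM with PA, and the groups overlapped. The log2 fold change was 0.01 with a 95% interval of −0.09 to 0.10 (adjusted p = 0.937 from limma). The gene is on chromosome 11 from 100715009 to 100738215.

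Summed over the 3 genes, RAB5 transcripts were at 168.0 ± 6.37 RPKM with BSA and 168.5 ± 4.23 with PA (SD, n = 3 libraries each), and the groups overlapped. Within that sum, Rab5a took 22.6%, 21.4% and 22.2% with BSA and 23.2%, 24.5% and 24.4% with PA. Rab5b took 19.8%, 20.5% and 20.7% with BSA and 18.9%, 17.8% and 18.4% with PA. The share of Rab5c was 57.6% ± 0.471 with BSA and 57.7% ± 0.316 with PA. The level of Eea1 relative to the RAB5 sum was 5.41%, 5.46% and 6.48% with BSA and 9.25%, 9.47% and 9.86% with PA, with the PA libraries all higher, while the summed RAB5 levels of the groups overlapped. These shares are descriptions and were not tested.

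The windows upstream of these genes were read for the palindromic E-box CACGTG and for GTCACGTG, the core of the CLEAR motif that TFEB binds, on both strands, from 250 bases before to 50 after each RefSeq start site (GRCm38.p6). All 10 members had at least 1 window, 13 in all. CACGTG was in 1 of the 10 genes, Rab5a, and in 8.09% of all 27025 genes with a window. GTCACGTG was again in Rab5a alone, and in 2.55% of all genes. Rab5a held 2 copies of CACGTG, beginning 235 and 95 bases upstream of its start site. Since GTCACGTG overlaps its own reverse complement, 3 matches to it were counted around these copies. The 250 bases upstream are shown for Rab5a, which has the motif, for Eea1, which rose without a match in its window, and for the caveolin pair, of which Cav1 fell. Capitals mark CACGTG, and each is given on the strand of its gene.
Rab5a (chr17:53478984-53479233, plus strand): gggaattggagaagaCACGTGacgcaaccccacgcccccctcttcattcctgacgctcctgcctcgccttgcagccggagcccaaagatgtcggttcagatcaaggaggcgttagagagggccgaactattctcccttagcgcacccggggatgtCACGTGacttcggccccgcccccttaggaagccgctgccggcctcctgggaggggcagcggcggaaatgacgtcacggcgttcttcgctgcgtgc
Eea1 (chr10:95940413-95940662, plus strand): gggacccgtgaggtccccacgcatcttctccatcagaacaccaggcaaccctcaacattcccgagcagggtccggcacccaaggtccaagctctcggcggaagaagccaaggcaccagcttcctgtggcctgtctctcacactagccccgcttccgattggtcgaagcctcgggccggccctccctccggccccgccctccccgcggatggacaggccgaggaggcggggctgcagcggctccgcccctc
Cav2 (chr6:17280935-17281184, plus strand): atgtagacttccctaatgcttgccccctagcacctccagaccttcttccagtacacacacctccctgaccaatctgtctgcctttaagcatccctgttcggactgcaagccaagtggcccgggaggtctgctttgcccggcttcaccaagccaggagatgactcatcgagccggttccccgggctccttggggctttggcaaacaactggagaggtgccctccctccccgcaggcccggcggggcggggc
Cav1 (chr6:17306085-17306334, plus strand, the first of its start sites): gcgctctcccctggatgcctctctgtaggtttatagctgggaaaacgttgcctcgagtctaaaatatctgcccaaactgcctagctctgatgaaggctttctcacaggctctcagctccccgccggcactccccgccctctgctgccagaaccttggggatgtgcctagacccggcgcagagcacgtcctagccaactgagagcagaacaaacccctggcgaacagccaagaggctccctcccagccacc

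The window of Rab5a, whose log2 fold change of 0.13 did not pass, thus carries the motif, while those of Eea1 (0.72), Cav1 (−0.28) and Dab2 (−0.24) do not. A match is a description of the letters, and a window without one says nothing of binding elsewhere. The 4 windows shown are rich in G and C, at 64.0% for Rab5a, 68.8% for Eea1, 62.0% for Cav2 and 59.6% for Cav1.

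The genes around these 10 were read from 8 lists of the endocytic route, chosen with earlier results of these data known. Beyond the members they held 152 tested genes, of which 32 rose, 14 fell and 106 did not pass. This is 30.3% called beside 20.7% of all genes tested (11.2% higher and 9.52% lower). The median log2 fold change was 0.01 beside −0.04. Because of how the lists were chosen, the higher share is a description only. With 1 library left out, 27 to 33 of the 152 genes rose and 6 to 18 fell, with 6 that fell without PA replicate 2 or 3, 7 without BSA replicate 2 and 8 without BSA replicate 1.

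Among other cargo receptors, 6 of 11 rose and 1 fell. Among those that rose were Lrp8, the apolipoprotein E receptor 2 gene, at 1.56-fold, Igf2r, a mannose 6-phosphate receptor gene, at 1.51-fold and Tfrc, the transferrin receptor gene, at 1.34-fold (largest adjusted p = 0.0031 from limma, for Tfrc). Lrp8 belongs to the same receptor family as Lrp2, whose log2 fold change was −0.19. Sort1, a sorting receptor gene, was 1.20-fold lower (adjusted p = 0.0483 from limma), a call that held in 1 of the 6 fits with a library left out. Lrpap1, which encodes the chaperone of megalin, had a log2 fold change of 0.02 (adjusted p = 0.861 from limma).

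Of 30 other clathrin coat and adaptor genes, 2 rose and 5 fell. Cltc, the clathrin heavy chain gene, was at 102.6 ± 2.17 RPKM with BSA and rose to 124.0 ± 3.13 with PA (SD, n = 3 each, adjusted p = 0.0011 from limma), beside the log2 fold change of 0.08 of Clta. Cltb, the other clathrin light chain gene, had a log2 fold change of −0.04 (adjusted p = 0.577 from limma). Tom1, which encodes an endosomal adaptor of ubiquitinated cargo, rose 1.82-fold. The largest falls were those of Epn3, an epsin gene, at 1.43-fold and Ston1, a stonin gene, at 1.38-fold, followed by Fcho2, a gene for an early pit protein, at 1.18-fold. The call of Fcho2 held in 3 of the 6 fits with a library left out. Leaving out libraries lowered the 5 that fell to 3 without BSA replicate 1 or PA replicate 1, and 2 without BSA replicate 2, PA replicate 2 or PA replicate 3.

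Around the caveolins, Ehd2, which encodes an ATPase at the neck of caveolae, fell, from 26.5 ± 0.894 RPKM with BSA to 22.2 ± 0.414 with PA (SD, n = 3 each, adjusted p = 0.0039 from limma), and the other 5 genes tested did not pass. Without BSA replicate 3, 3 of these 6 genes fell. Ptrf, the cavin-1 gene, had a log2 fold change of −0.09 (adjusted p = 0.0786 from limma). Of 14 scission genes, Snx9 and Wasl rose, both 1.12-fold, and each held in 2 of the 6 fits with a library left out. Neither passed without BSA replicate 2, PA replicate 2 or PA replicate 3.

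Among 26 other regulators and effectors of RAB5, 6 rose and 2 fell. Vps11 rose 1.35-fold and Tgfbrap1 1.25-fold, both subunit genes of the CORVET tether of early endosomes. Rabep1, the gene of the RAB5 effector rabaptin-5, rose 1.21-fold (largest adjusted p of these 3 = 0.0079 from limma). Rin3, a gene for a RAB5 exchange factor, was 1.20-fold lower and Appl2, a RAB5 effector gene, 1.18-fold lower. The call of Rin3 held in all 6 fits with a library left out and that of Appl2 in 2, those without BSA replicate 3 and PA replicate 1.

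Of 28 genes that sort cargo on toward lysosomes, 5 rose and 2 fell. Vps37b, of the ESCRT machinery, rose 1.75-fold, Vac14, of the complex that makes phosphatidylinositol 3,5-bisphosphate, 1.31-fold, Rab7, the late endosome GTPase gene, 1.22-fold and Stam, an ESCRT gene, 1.18-fold. Pikfyve and Fig4, of the same complex as Vac14, did not pass, with log2 fold changes of 0.14 and 0.02 (adjusted p = 0.126 and 0.848 from limma). Chmp2a and Vps36, also of the ESCRT machinery, were 1.14-fold and 1.08-fold lower, and their calls held in 4 and 1 of the 6 fits with a library left out, with no gene of the list lower without PA replicate 2 or 3. Rab7 was at 85.6 ± 3.35 RPKM with BSA and 104.7 ± 1.31 with PA (SD, n = 3 each, adjusted p = 0.0013 from limma), and the 3 RAB5 genes of the stage before it did not pass.

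Of 29 genes that return receptors from endosomes to the surface, 10 rose and 3 fell, and 9 to 11 rose with 1 library left out. Vps26a, of the retromer complex, was at 24.5, 26.3 and 26.0 RPKM with BSA and 43.8, 43.7 and 44.0 with PA, a 1.71-fold rise with an adjusted p of 1.6e-05 from limma. Fam21 and E430025E21Rik, which RefSeq lists as older names of Washc2 and Washc5, genes of the WASH complex that builds actin on endosomes, rose by 0.67 and 0.61 on the log2 scale. Ccdc22, of the CCC complex that acts with WASH, rose 1.34-fold. The remaining 6, named here after their values were seen, were Vps35 of retromer, Wash1 of the WASH complex, Ccdc93 of the CCC complex, Dscr3 and 9030624J02Rik of the retriever complex (Vps26c and Vps35l in RefSeq), and Rab11fip5, from 1.17-fold to 1.29-fold. The call of 9030624J02Rik held in 3 of the 6 fits with a library left out, and those of the other 5 in all 6. Not every tested gene of these complexes rose. Vps29 and Vps26b of retromer did not pass, with log2 fold changes of 0.12 and −0.03 (adjusted p = 0.057 and 0.726 from limma). Nor did Commd1 of the CCC complex, at −0.11 (adjusted p = 0.0758 from limma). Snx6 and Rab11a were 1.18-fold lower, calls that held in all 6 fits with a library left out, and Snx1 was 1.10-fold lower, which held in 2. Snx17, which binds the tail of megalin and other receptors of its family for recycling, had a log2 fold change of −0.08 (adjusted p = 0.296 from limma).

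Clcn5 encodes an endosomal chloride-proton exchanger whose loss in people impairs tubular protein uptake. Its level was 7.91 ± 0.229 RPKM with BSA and rose to 10.2 ± 0.556 with PA (SD, n = 3 each, adjusted p = 0.0041 from limma), the only call among 8 ion and lipid regulators. Ocrl, a phosphatase gene tied to the same kind of tubular disease, had a log2 fold change of −0.24 (adjusted p = 0.0837 from limma).

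**Figure D3:**
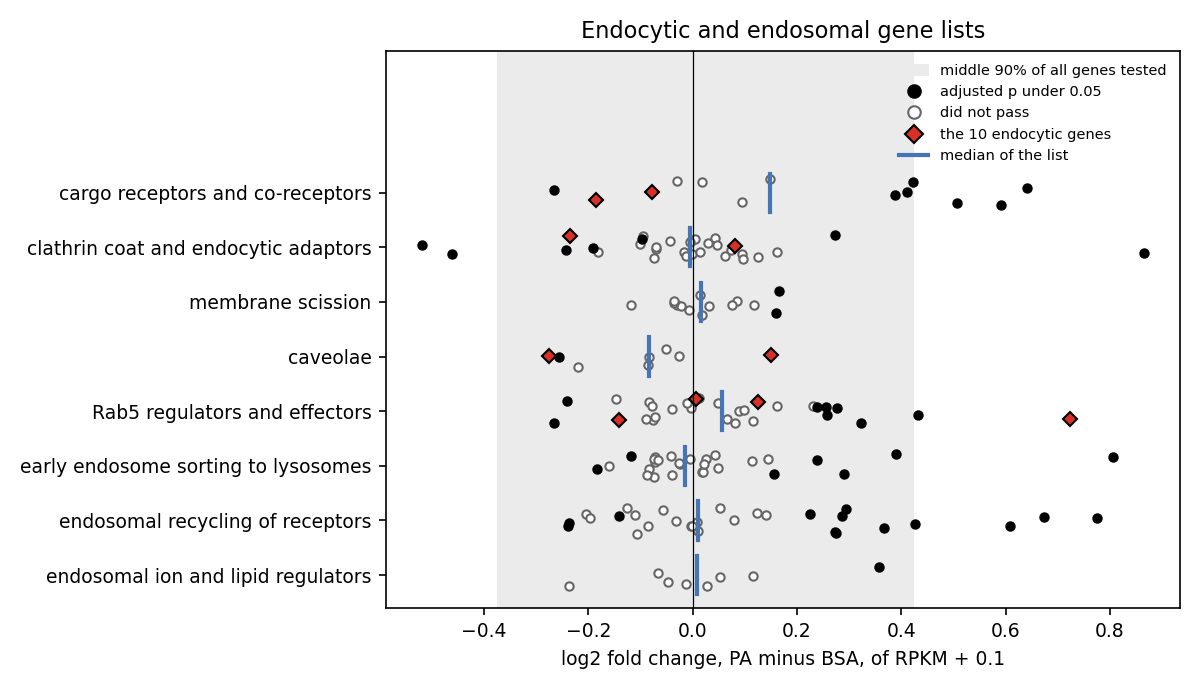
Log2 fold change, PA minus BSA, of every tested gene in 8 endocytic lists on the log2(RPKM + 0.1) scale, with filled points for an adjusted p under 0.05, open points for the rest, diamonds for the 10 endocytic genes, a bar at the median of each list with its members and a grey band for the middle 90% of all genes tested. Eea1 at 0.72 lies outside the band and the other 9 members lie inside it.

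**Figure D4:**
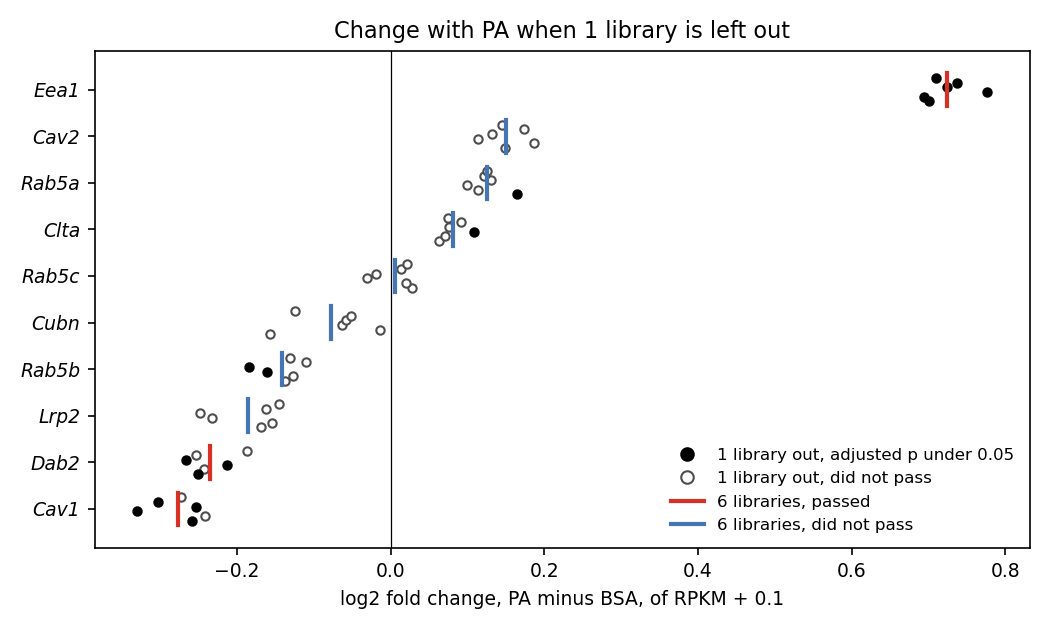
Log2 fold change of each endocytic gene with 1 of the 6 libraries left out, filled where the adjusted p was under 0.05, beside the value from 6 libraries as a bar. Eea1 stays filled in each of the 6 fits, from 0.69 to 0.78, whereas Cav1 and Dab2 are open in 2 and 3 of them and Rab5c crosses 0.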

How the data were processed

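Reads of 6 libraries, 3 from BSA-treated and 3 from PA-treated PTECs, were mapped by the authors to GRCm38 with TopHat and Bowtie2. The submitters' processing notes name TopHat2 2.1.1, bcl2fastq and mm10. For the read counter, the annotation and the strand setting, nothing was given in the sources used here. Values deposited by the authors are RPKM per gene and library. The table also holds the authors' own fold changes, p-values and ranks, which were not used. Columns carry an initial of the treatment and a number, and were matched to the labels of that treatment and number.

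Library sizes and whole reads were recovered from the RPKM steps. Reads were whole within a tolerance of 1e-04 reads in 100% of the 19127 genes above 0, and sum to 99.37% to 99.44% of the library sizes. Genes with a mean of at least 0.5 RPKM were tested with limma 3.58.1 (R 4.3.3, lmFit and eBayes with a variance trend), treatment being the one factor, on log2(RPKM + 0.1). The Benjamini-Hochberg adjustment ran over 11671 genes.

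The members, the 8 lists and the tests were chosen with earlier results of these data known. All 10 members are named. From each list the text names called genes, up to 4 by size on each side (some results are not reported here), and a few others (Lrpap1, Cltb, Ptrf, Snx17, Ocrl, Amn) were added as partners of a member after their values were seen. Positions are from GENCODE vM21 on GRCm38, and upstream sequences from RefSeq on GRCm38.p6. In GENCODE vM21 the exons of Rab5a share 221 bases with Pp2d1, on the opposite strand, which had 1 to 9 reads per library. Those of Cubn share 368 bases with Gm13270 and those of Dab2 211 bases with the pseudogene Gm18888, both also on the opposite strand. Alternatives were other pseudocounts, filters, scalings, no variance trend, limma voom, a replicate block, each library left out and, added after seeing the data, removal of the GC trend of each library.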

Additional observations from a re-analysis of the deposited data

How the results depend on the processing

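Eea1 was called higher in all 16 alternatives. The number of members called higher, 1 of 10, was 3 with median-of-ratios scaling (Cav2 and Rab5a added) and 2 with limma voom on the recovered reads (Rab5a added), and 1 to 2 with 1 library left out. The number called lower, 2 of 10, was 4 with limma voom (Lrp2 and Rab5b added) and 0 to 3 with 1 library left out, with 0 without BSA replicate 2 or PA replicate 3. Rab5b was also called lower with quantile normalization. Rab5c, which did not pass in any fit, changed sign from 0.0056 to −0.013 with quantile normalization, −0.031 without BSA replicate 3 and −0.018 without PA replicate 1, with a range of −0.031 to 0.028 over the fits with 1 library left out. Over all genes tested, 2413 were called, and 1210 (without PA replicate 2) to 3007 (without BSA replicate 3) with 1 library left out. Of the called genes 54.0% were higher, 64.8% with median-of-ratios scaling and 45.4% to 67.7% with 1 library left out. The same-numbered BSA and PA libraries deviated from their group means with correlations of 0.035, −0.036 and 0.094. Those of other numbers ran from −0.103 to 0.074. Correlations among so few libraries cannot decide whether the numbers pair the samples, which neither labels nor methods state. With the replicate block 2575 genes were called and no member changed its call. In the BSA libraries the deviations followed the GC content of genes (Spearman 0.355, 0.159 and −0.375), and with that trend removed, 2746 genes and the same 3 members were called. At 185 to 272 reads per library, Cubn has the least precise value. The cause of these changes was not tested.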

Other observations

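Amn, which encodes amnionless, the membrane partner of cubilin, was too low to enter the test. It was at 0.296, 0.248 and 0.201 RPKM with BSA and 0.470, 0.399 and 0.519 RPKM with PA, from 10, 9 and 6 reads with BSA and 16, 12 and 17 with PA. All PA libraries were above all BSA libraries at these read numbers, which were not tested.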
